A study of Mus musculus with 12 samples.

Results

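Among 12 mouse brain libraries, 4 held RNA of the cerebellum and 8 held little or none. The libraries were divided by the level of Gabra6, which encodes the alpha 6 subunit of the GABA-A receptor and is expressed mainly by granule cells of the cerebellum. A library was placed in the set with cerebellar signal when Gabra6 was above 5 FPKM (fragments per kilobase of gene length, on a scale common to the libraries), and in the set without it otherwise. The 4 libraries with the signal were PBS female replicate 1, LPS female replicate 1, LPS male replicate 1 and LPS male replicate 2. The 8 libraries without it were PBS female replicate 2, both PBS males, LPS female replicate 2 and all 4 LPS+DMA libraries. The level just inside the threshold was 15.6 FPKM, in LPS male replicate 1, and the level just outside it was 0.170 FPKM, in LPS+DMA male replicate 2. The sets were chosen by the measured Gabra6 FPKM, so every difference between them is given as a description, with no test.

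The 12 libraries came from 12 adult C57BL/6 mice, an inbred strain, in 3 arms of 2 females and 2 males, and the labels describe the tissue as whole brain. PBS mice were given phosphate-buffered saline. LPS mice received daily intraperitoneal lipopolysaccharide, a component of bacterial outer membranes that provokes inflammation, at 0.5 mg/kg over 7 days. LPS+DMA mice received the same LPS and, alongside it, intraperitoneal N,N-dimethylacetamide (DMA), a solvent used as a drug carrier, at a dose not given in the sources used here. Brains were taken on day 7 and frozen, and poly(A) messenger RNA was sequenced. The sets therefore differed in treatment: the set with cerebellar signal held 1 PBS, 3 LPS and 0 LPS+DMA libraries, and the set without it held 3 PBS, 1 LPS and 4 LPS+DMA libraries.

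The cerebellum lies above the brainstem and is built from few cell types. Granule cells, the most numerous neurons of the brain, excite Purkinje cells, whose inhibitory axons are the only output of the cerebellar cortex. Bergmann glia support the Purkinje cells, and cerebellar interneurons inhibit them. The brainstem beneath is marked by Hox transcription factors, glycinergic inhibition and monoamine neurons, whereas the forebrain in front is marked by synaptic proteins such as Camk2a. In bulk RNA, fewer cells of a type and less RNA per cell cannot be told apart.

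The 4 genes that trace the division most closely are shown with the 250 bases before their annotated start. They are Gabra6 and the coding genes with the highest correlation with it over the 12 libraries. Cbln3 encodes a secreted synaptic organizer of granule cells (Pearson's r = 0.998 on log2(FPKM + 1)), Pcp2 a G-protein regulator of Purkinje cells (r = 0.997), and Fat2 a giant cadherin of granule cells (r = 0.994). These correlations describe 12 libraries that share the same tissue differences, and they carry no p. Sequences are from RefSeq, build GRCm38.p6, all on the minus strand and written 5′ to 3′, and capitals mark TTGGC or its reverse complement GCCAA, the half-site of nuclear factor I, a family of factors known to act in maturing granule cells.
Gabra6, chr11:42321073-42321322: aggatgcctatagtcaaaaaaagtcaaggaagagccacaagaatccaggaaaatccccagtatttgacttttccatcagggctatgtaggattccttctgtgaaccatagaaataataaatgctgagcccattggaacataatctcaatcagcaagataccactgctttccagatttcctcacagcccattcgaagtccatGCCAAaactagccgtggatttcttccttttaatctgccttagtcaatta
Cbln3, chr14:55884257-55884506: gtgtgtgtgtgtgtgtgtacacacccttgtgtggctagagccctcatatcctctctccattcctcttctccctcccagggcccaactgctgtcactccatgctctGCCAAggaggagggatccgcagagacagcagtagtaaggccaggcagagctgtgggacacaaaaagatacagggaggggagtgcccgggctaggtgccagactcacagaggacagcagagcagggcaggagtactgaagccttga
Pcp2, chr8:3625548-3625797: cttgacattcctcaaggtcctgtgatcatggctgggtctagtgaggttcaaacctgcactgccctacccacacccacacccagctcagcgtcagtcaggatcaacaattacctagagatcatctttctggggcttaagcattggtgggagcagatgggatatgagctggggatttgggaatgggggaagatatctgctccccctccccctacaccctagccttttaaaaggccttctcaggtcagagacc
Fat2, chr11:55312258-55312507: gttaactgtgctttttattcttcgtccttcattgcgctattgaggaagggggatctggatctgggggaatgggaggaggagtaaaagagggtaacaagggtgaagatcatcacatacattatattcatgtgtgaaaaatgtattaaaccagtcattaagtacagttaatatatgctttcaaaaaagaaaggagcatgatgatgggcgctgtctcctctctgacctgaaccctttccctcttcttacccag
The half-site stood 49 bases before the start in Gabra6 and 145 bases before it in Cbln3, and these letters were not in the windows of Pcp2 and Fat2. It was found on either strand in 41.9% of 27025 mouse windows of this length. None of the 4 windows held CAGCTG, an E-box, or TAATTA, a homeodomain core, which were present in 12.8% and 4.90% of all windows.

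In the deposited table, on build GRCm39, Gabra6 (ENSMUSG00000020428) spans positions 42197264 to 42211899 of chromosome 11 on the minus strand. In the order PBS female replicate 1, LPS female replicate 1, LPS male replicate 1 and LPS male replicate 2, its level was 74.6, 114, 15.6 and 90.5 FPKM. It was 0 in 7 libraries and 0.170 in LPS+DMA male replicate 2. The 4 values above the threshold rested on 8069, 9595, 1476 and 8816 reads, and the value below it on 11 reads. In the 7 libraries at 0, the limit set by 3 reads was 0.0321 to 0.0438 FPKM, far below the level of each library with the signal. The mean of the set with the signal was 73.6 ± 41.9 FPKM (SD, n = 4), a spread made mostly by LPS male replicate 1.

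**Figure D1:**
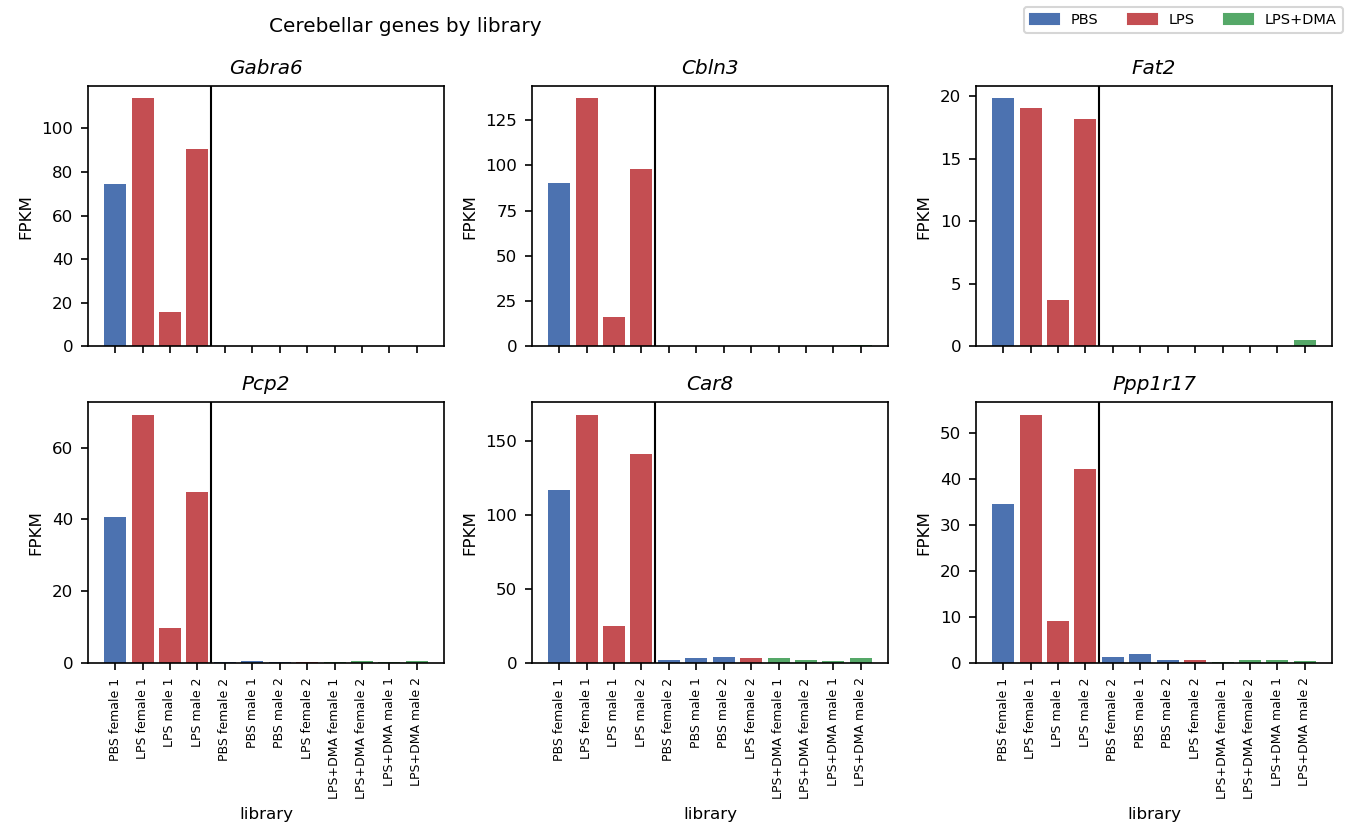
FPKM (vertical axes, from 0) of 6 genes of granule cells (Gabra6, Cbln3, Fat2) and Purkinje cells (Pcp2, Car8, Ppp1r17) in each of the 12 libraries, with 1 bar per library coloured by arm. The libraries left of the vertical line have Gabra6 above 5 FPKM, and within them LPS male replicate 1 is lowest for all 6 genes.

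The granule cell genes followed Gabra6. In the order given for Gabra6, Cbln3 was 90.3, 137, 16.2 and 97.7 FPKM, and 0.0481 to 1.00 in the 8 other libraries. Fat2 was 19.8, 19.1, 3.71 and 18.2 FPKM in the same order, and 0.00367 to 0.542 elsewhere. Neither gene overlapped between the sets, and in the set without the signal both were highest in LPS+DMA male replicate 2, the library with 11 Gabra6 reads. Neurod1, a transcription factor of granule cells, was 40.5, 55.8, 7.56 and 43.2 FPKM against 1.90 to 4.49. En2, an Engrailed factor that patterns the cerebellum and midbrain, was 11.2, 15.4, 3.76 and 11.5 FPKM against 0.0862 to 2.09. Zic2, a zinc finger factor of granule cells, was 27.3, 40.8, 9.57 and 30.4 FPKM against 4.49 to 7.54. For these 3 factors too, the lowest library with the signal lay above the highest without it. Genes with wider expression overlapped: Zic1 was lower in LPS male replicate 1 (16.01 FPKM) than in PBS male replicate 1 (19.2), and Gabrd, the GABA-A delta subunit used by granule cells and by forebrain neurons, ranged from 4.18 to 25.4 FPKM with the signal and from 10.02 to 24.6 without it.

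Purkinje cell genes were divided in the same way. Pcp2 was 40.7, 69.2, 9.80 and 47.5 FPKM in the same order of libraries, and 0.0961 to 0.554 in the other 8. Car8, a regulator of the IP3 receptor, was 116, 167, 25.1 and 141 FPKM against 0.879 to 3.98. Ppp1r17, a phosphatase inhibitor, was 34.7, 54.0, 9.03 and 42.3 FPKM against 0.167 to 1.91. LPS male replicate 1 had the lowest level of each in its set, and LPS female replicate 1 the highest. Slc1a6, the glutamate transporter of Purkinje cells, was 17.5, 26.1, 7.63 and 19.6 FPKM against 2.82 to 7.41, with LPS male replicate 1 only just above LPS+DMA male replicate 2. Calb1, a calcium buffer that forebrain neurons also express, overlapped, at 21.8 to 99.4 FPKM with the signal and 19.0 to 39.7 without it. Gdf10, a growth factor of Bergmann glia, was 7.76, 12.9, 1.86 and 8.87 FPKM against 0.363 to 1.504.

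A gene was counted as different between the sets when its lowest value in one lay above its highest in the other and the set means of FPKM + 1 differed at least 2 times. Of 19571 genes with at least 0.5 FPKM in at least 2 libraries, 157 were counted higher in the set with the signal, 0.802% of the genes, and 255 were counted lower, 1.30%. These counts use the contrast that chose the sets. The granule cell list of 20 genes had 12 counted higher and 0 lower, with a median difference of 1.74 in mean log2(FPKM + 1), and the Purkinje cell list of 17 had 13 higher and 0 lower, with a median of 1.40. Of 10 genes of Bergmann glia and cerebellar interneurons, 9 were kept by the filter and 3 were counted higher, with a median of 0.98. The median over all genes was -0.0035. The granule cell count includes Gabra6, which chose the sets and was therefore bound to be higher. Other granule cell genes and the Purkinje cell genes went with it, although not each of them. Without PBS female replicate 1, which leaves 3 LPS libraries in the set, 258 genes were counted higher and 562 lower.

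Levels of the 4 libraries can be set side by side through 8 cerebellar genes, Gabra6 among them. Their level in the other libraries stayed below 10% of that in PBS female replicate 1. As a percentage of PBS female replicate 1, the median over these genes was 150% in LPS female replicate 1 (range 96.1% to 170%), 117% in LPS male replicate 2 (91.8% to 122%) and 22.8% in LPS male replicate 1 (18.0% to 50.2%). LPS male replicate 1 thus held less cerebellar signal than the others for each of the 8 genes. At 50.2%, Tlx3, a homeobox factor also found in brainstem neurons, was the highest of the 8 in that library.

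LPS male replicate 1 was instead the library with the most brainstem signal. Summed over 39 Hox genes, which mark the hindbrain and spinal cord, levels were 42.9, 13.2, 9.79 and 0.708 FPKM in the order LPS male replicate 1, LPS male replicate 2, LPS female replicate 1 and PBS female replicate 1. In the 8 libraries without cerebellar signal the sum ran from 0 to 1.69 FPKM, highest in LPS+DMA male replicate 2 and next in PBS male replicate 2 (1.12). The 3 LPS libraries of the set were thus above all other libraries, while PBS female replicate 1 lay inside the range of the 8. Hoxb5 alone was 8.03, 1.39, 1.55 and 0.033 FPKM in that order, against 0 in 7 libraries and 0.442 in LPS+DMA male replicate 2.

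Transmitter genes of the brainstem were highest in LPS male replicate 1 as well, although their order in the other libraries varied. Slc6a5, the neuronal glycine transporter, was 51.7 FPKM in LPS male replicate 1, 32.8 in LPS male replicate 2, 19.2 in LPS female replicate 1 and 3.93 in PBS female replicate 1, and 0 to 3.27 elsewhere, with PBS male replicate 2 highest. Glra1, the adult glycine receptor alpha subunit, was 34.2, 24.3, 12.97 and 5.47 FPKM in that order and 0.243 to 9.44 elsewhere, so that PBS female replicate 1 fell below PBS male replicate 2. Tph2, the enzyme that starts serotonin synthesis in raphe neurons, was 38.7, 12.7, 16.8 and 1.66 FPKM, and among the other 8 reached 13.1 in PBS male replicate 2 and no more than 2.52 in the rest. Of the 39 brainstem and hindbrain genes, 31 passed the filter, 7 were counted higher and 0 lower, with a median difference of 1.10. That median was 0.50 with Gabra6 above 20 FPKM as the threshold, which moves LPS male replicate 1 to the other set. In the 3 LPS libraries cerebellar and brainstem genes were present together, which the name cerebellar signal does not convey.

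**Figure D2:**
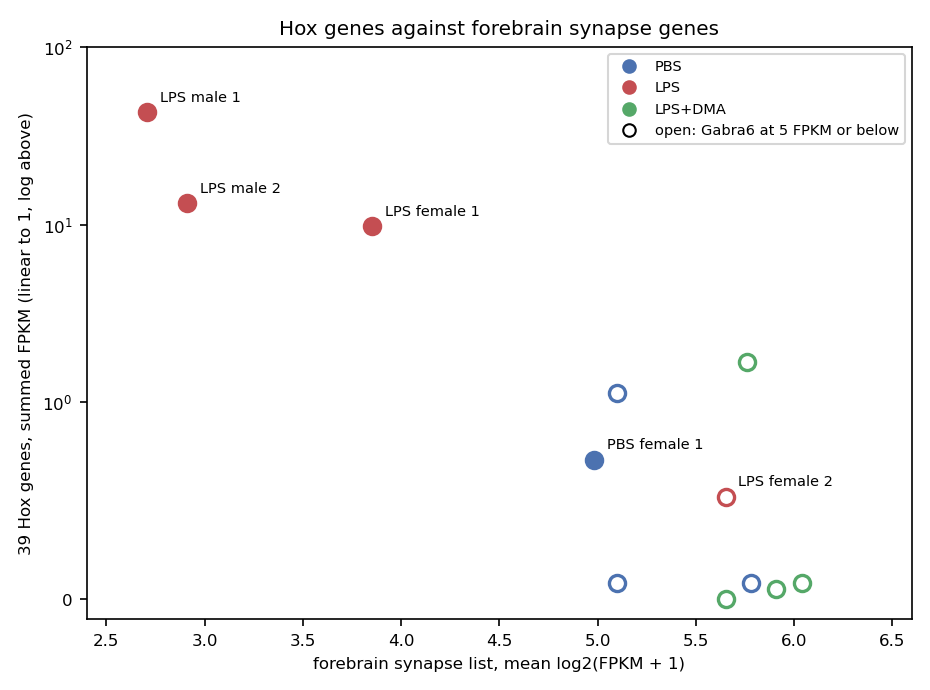
Each point is 1 library, placed by the mean log2(FPKM + 1) of 23 forebrain synapse genes (horizontal) and by the summed FPKM of 39 Hox genes (vertical, linear up to 1 and logarithmic above), coloured by arm and filled where Gabra6 was above 5 FPKM. The 3 LPS libraries with cerebellar signal lie at the upper left, at synapse means of 2.71 to 3.85, and PBS female replicate 1 (4.98) lies beside the libraries without the signal (5.10 to 6.04).

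Genes of the forebrain were lower where cerebellar signal was present, most of all in the LPS males. Ddn, a postsynaptic protein of forebrain dendrites, was 76.8, 42.8, 0.507 and 0.959 FPKM in the order PBS female replicate 1, LPS female replicate 1, LPS male replicate 1 and LPS male replicate 2. In the other 8 libraries Ddn was 87.1 to 277 FPKM. Its difference of -4.22 in mean log2(FPKM + 1) was the largest among coding genes lower with the signal, although PBS female replicate 1 lay close to PBS male replicate 2 (87.1). Camk2a, the alpha subunit of the calcium-calmodulin kinase of excitatory synapses, was 138, 50.8, 9.45 and 10.6 FPKM against 174 to 350. Nrgn, which binds calmodulin in dendrites, was 283, 46.8, 4.93 and 9.44 FPKM against 303 to 675. Both were more than 10 times lower in the LPS males than in any library without the signal. Of the 23 forebrain synapse genes, 13 were counted lower and 0 higher, with a median difference of -1.75.

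Cortical and striatal genes followed. Tbr1, a factor of deep-layer cortical neurons, was 8.63, 1.19, 0.067 and 0.0512 FPKM in the order given for Ddn, and 8.82 to 24.5 elsewhere. Cortical and telencephalic projection neuron genes numbered 29, of which 11 were counted lower and 0 higher (median difference -1.65, or -1.09 at that higher threshold), and the 25 striatal genes had 12 lower and 0 higher (median -1.31). Tbr1 was thus near 0 in the LPS males, and near the lowest of the other 8 libraries in PBS female replicate 1.

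Striatal genes varied widely inside the set without cerebellar signal as well. Drd1, the D1 dopamine receptor, was 16.5 to 38.2 FPKM in 3 of the LPS+DMA libraries, 10.6 in LPS female replicate 2 and 1.75 to 3.79 in the 4 others, against 0.231 to 1.00 with the signal. The set without cerebellar signal was therefore no uniform region.

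**Figure D3:**
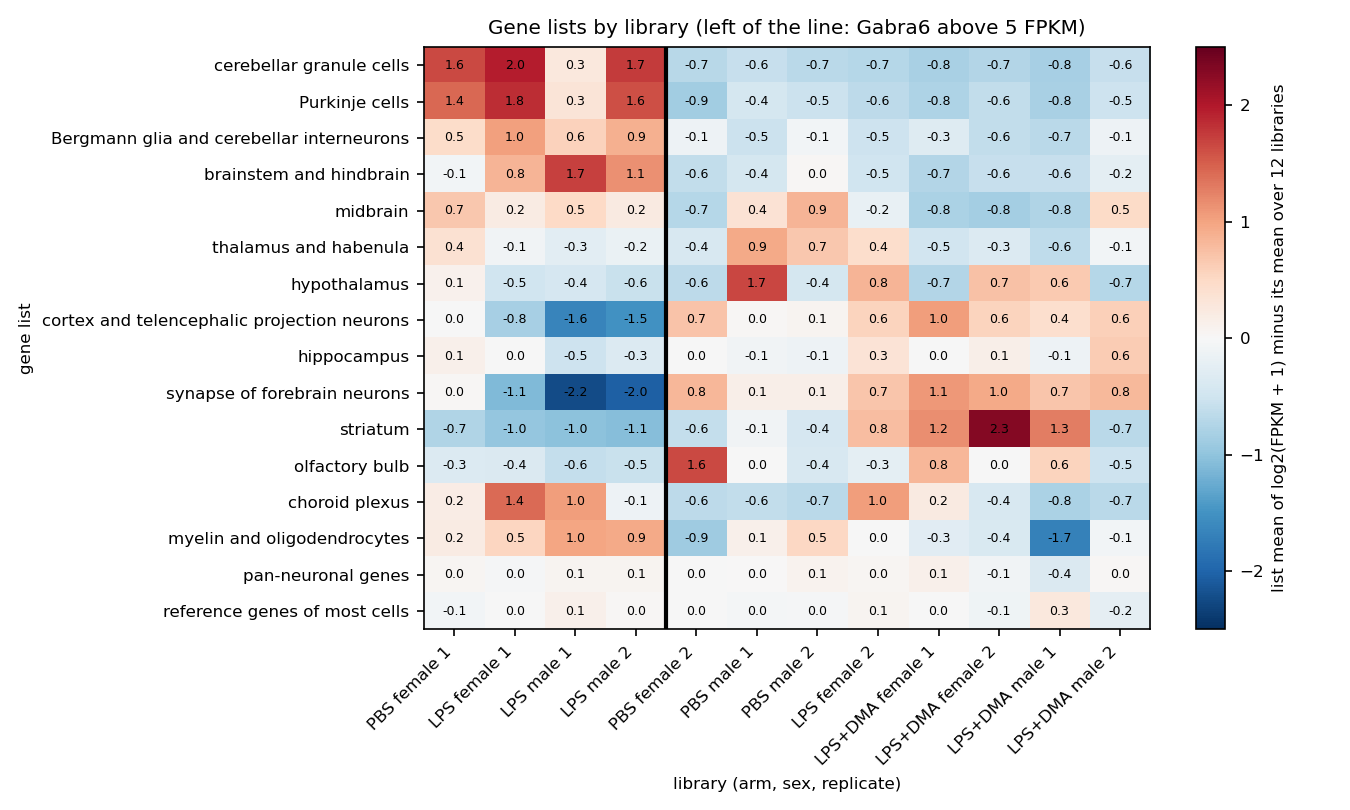
Heat map of 16 gene lists (rows) in 12 libraries (columns), where the colour and the number in each cell give the list's mean log2(FPKM + 1) minus its mean over the 12 libraries, and the black line separates libraries with Gabra6 above 5 FPKM (left) from the rest. Granule and Purkinje cell lists are high left of the line only, the forebrain synapse list is lowest in the LPS males, and hypothalamus, striatum and olfactory bulb lists vary between libraries right of the line.

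Midbrain and hypothalamic genes crossed the division, and olfactory bulb genes did so in part. Slc6a3, the dopamine transporter of midbrain neurons, was 24.4 FPKM in PBS female replicate 1 and 2.34 to 3.45 in the 3 LPS libraries with the signal. Without the signal it was 19.7 in PBS male replicate 2, 13.3 in PBS male replicate 1, 12.3 in LPS+DMA male replicate 2, 7.16 in LPS female replicate 2 and 0.189 to 0.442 in the other 4. Hcrt, the hypothalamic peptide orexin, was 42.8 FPKM in PBS female replicate 1 and 0.0701 to 0.136 in the 3 LPS libraries with the signal. In the other set Hcrt was 41.2 in PBS male replicate 1, 28.5 in LPS female replicate 2, 14.5 in LPS+DMA male replicate 1, 1.75 in LPS+DMA female replicate 2 and at most 0.145 in the other 4. Pmch, a second peptide of the lateral hypothalamus, was above 100 FPKM in PBS female replicate 1 (155), PBS male replicate 1 (226), LPS female replicate 2 (132) and LPS+DMA male replicate 1 (136), and at most 3.69 in the other 8. Cdhr1, a cadherin of olfactory bulb output neurons, reached 27.3 FPKM in PBS female replicate 2, 14.9 in LPS+DMA female replicate 1 and 9.10 in LPS+DMA male replicate 1, and was 0.504 to 0.579 with cerebellar signal. Of 22 hypothalamic genes past the filter, of 30 on the list, 0 were counted in either direction, and of 13 midbrain genes, of 15 listed, 1 was counted higher (Aldh1a1). Of 23 olfactory bulb genes 5 were counted lower, Cdhr1 among them, and 1 higher. Against the label of whole brain, Gabra6 was thus at 0 in 7 libraries and Hcrt at most 0.145 FPKM in 7, and only 3 libraries had Cdhr1 above 5 FPKM.

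Pan-neuronal genes hardly differed. Snap25, a protein of all presynaptic terminals, was 332 ± 10.5 FPKM with the signal (SD, n = 4) and 299 ± 57.5 without it (SD, n = 8). Of 15 pan-neuronal genes 1, Syt1, was counted lower, with a median difference of 0.04, and of 14 reference genes expressed by most cells none was counted, with a median of 0.05.

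GABA-A receptor subunits differed by subunit. Gabra3 was 19.3 to 26.6 FPKM with the signal and 33.3 to 49.2 without it, with r = -0.932 against Gabra6 over the 12 libraries. Gabra4, a subunit of striatal and thalamic neurons, was 13.1, 6.26, 2.79 and 3.13 FPKM in the usual order of libraries, PBS female first and LPS male replicate 2 last, against 13.8 to 27.0. Gabra5, a subunit of hippocampal and cortical neurons, was 9.77 to 12.5 FPKM against 15.0 to 32.7. The alpha 3, alpha 4 and alpha 5 subunits did not overlap between the sets. Alpha 6 ran the other way by the choice of the sets, which Gabra6 defined. Of 16 subunits past the filter, of 19 listed, Gabra4 alone was counted lower, and none but Gabra6 was counted higher.

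Glutamate receptors were divided likewise. Grin2b, an NMDA receptor subunit of the forebrain, was 17.9, 5.51, 4.03 and 3.12 FPKM in the same order against 20.1 to 44.8. Grin2c, the NMDA subunit of granule cells, was 25.0, 22.6, 9.80 and 26.0 FPKM against 5.71 to 9.51. The forebrain subunit was lower in each library with cerebellar signal, and the cerebellar subunit was higher in each. Gria4, an AMPA receptor subunit abundant in cerebellum and brainstem, was 32.5 to 43.5 FPKM against 14.7 to 25.1. Of 18 glutamate receptor genes, 2 were counted higher and 2 lower.

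Among glial genes, those of myelin overlapped between the sets and some astrocyte genes did not. Mbp, myelin basic protein, was 339 to 600 FPKM with the signal and 148 to 440 without it, with PBS male replicate 2 highest of the 8. All 20 myelin genes had a higher mean with the signal, with a median difference of 1.02, but 0 were counted. Aqp4, the water channel of astrocyte endfeet, was 33.8 FPKM in PBS female replicate 1 and 49.4 to 58.5 in the 3 LPS libraries, against 6.84 to 32.3 without the signal. Slc1a2, the main glutamate transporter of forebrain astrocytes, was 93.0 to 148 FPKM against 152 to 248, the reverse order. Of 20 astrocyte genes, 4 were higher and 2 lower without overlap, and 1, Aqp4, passed the 2-fold minimum. Without that minimum, 676 of all 19571 genes tested were higher and 823 lower. Ttr, transthyretin of the choroid plexus, a tissue of the ventricle wall, was 327, 1765, 1139 and 181 FPKM in the order PBS female replicate 1, LPS female replicate 1, LPS male replicate 1 and LPS male replicate 2. Without cerebellar signal Ttr was 1244 in LPS female replicate 2, 416 in LPS+DMA female replicate 1 and 0.576 to 18.7 in the other 6, so Ttr was high in all 4 LPS libraries and in single libraries of the other arms.

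Transcription factors made up 17 of the 157 genes counted higher (10.8%), 14 of the 255 counted lower (5.49%) and 5.58% of all genes tested. Homeobox genes made up 8 of the 157 (5.10%), 4 of the 255 (1.57%) and 0.460% of all. The transcription factors counted higher included Lhx1 and Lhx5 of Purkinje cells and Pax2 of cerebellar interneurons. The transcription factors counted lower included Tbr1, Emx2 and Lhx2 of the cortex and Dlx1 and Dlx5 of forebrain interneurons. The share of start windows with the nuclear factor I half-site was 50.9% of the 108 matched genes counted higher and 43.2% of the 176 matched genes counted lower, beside 41.9% of all windows. It was 43.8% of the 16 matched granule cell genes and 22.2% of the 9 matched Purkinje cell genes.

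Treatment comparisons drew unequally on the 2 sets, and each was therefore fitted with and without them. The fits used limma on log2(FPKM + 1) with sex as a term, and a gene was called at a Benjamini-Hochberg adjusted p under 0.05 over all 19571 genes. With all 12 libraries, LPS against PBS gave 2 genes called higher, Lyz2 and Saa3, 0.0102% of those tested, and 0 lower. LPS+DMA against LPS gave 1133 higher (5.79%) and 759 lower (3.88%). With FPKM rescaled to equal library totals, which shifted the median of all genes to -0.11, 589 were higher and 2285 lower. The 1892 genes called depended on the libraries. Without LPS female replicate 1, LPS male replicate 1 and LPS male replicate 2 in turn, the 3 LPS libraries with cerebellar signal, 11, 7 and 22 genes were called, and 3465 without LPS female replicate 2. With only the 2 arms in the fit 5 were called. The count was between 1052 and 1228 without LPS+DMA female replicate 1, LPS+DMA female replicate 2, LPS+DMA male replicate 2 or either PBS male. The 2 comparisons share the LPS libraries, and 3 of those 4 carried cerebellar signal while no LPS+DMA library did.

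Lists of regional genes were called in both directions between LPS+DMA and LPS. In LPS+DMA 20 of 23 forebrain synapse genes rose and 0 fell, with a median change of 1.85, and 17 of 29 cortical genes and 8 of 25 striatal genes rose, with 0 falling. Camk2a rose by 3.11 on the log2(FPKM + 1) scale (limma adjusted p = 0.027). Leaving out LPS male replicate 1 (adjusted p = 0.0966), LPS male replicate 2 (0.0923), LPS+DMA male replicate 1 (0.056), LPS+DMA male replicate 2 (0.0559) or LPS female replicate 1 (0.0881) ended that call. Among 31 brainstem genes 12 fell and 0 rose, with a median of -1.09, and 15 of 24 choroid plexus genes and 4 of 20 myelin genes fell. None of the 20 granule cell or 17 Purkinje cell genes was called, although their median changes were -1.31 and -1.06, against a median of 0.010 over all genes. Within the LPS arm Gabra6 ran from 0 to 114 FPKM.

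With the division by Gabra6 as a further term, LPS+DMA against LPS gave 5 genes called, 0 higher and 5 lower (0.0255%), and all 5 were among the 1892 called before. They were Lyz2, Tyrobp, Chil1, Pld4 and Cox8b, of which Lyz2 (lysozyme) and Tyrobp (a signalling adaptor) are genes of microglia and other myeloid cells and Chil1 encodes a chitinase-like protein. None of the forebrain, brainstem, choroid plexus or myelin genes was called. No LPS+DMA library carried the signal, so this fit leaned on LPS female replicate 2, the only LPS library without it. For the effect of the division it also drew on PBS female replicate 1, the only PBS library with the signal. LPS female replicate 2 also differed in its share of ribosomal RNA, given below. The calls lost and kept in this fit are therefore no clean correction for region. Over the 1892 genes the median absolute change went from 0.76 to 0.52 and the median standard error from 0.18 to 0.20, and 100% kept their sign. The difference in Camk2a was 1.39 in this fit, with a limma adjusted p of 0.389. LPS against PBS gave 1 gene called higher in the same fit, Lyz2 (0.00511%).

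Restricting the fits to the 8 libraries without cerebellar signal left LPS female replicate 2 as the only LPS library, which the fit assumes to vary like the others. LPS against PBS then gave 0 genes higher and 4 lower (0.0204%): mt-Rnr1 and mt-Rnr2, the ribosomal RNAs of mitochondria, and Rn18s-rs5 and Lars2, whose reads include ribosomal RNA sequence. mt-Rnr1 was 29.1 FPKM in LPS female replicate 2 and 2355 to 4766 in the 11 other libraries, and ribosomal RNA took 0.0499% of reads there against 3.60% to 10.9% elsewhere. The absence of cerebellar signal and this low ribosomal share fall on the same LPS library and cannot be told apart within the arm. LPS+DMA against PBS in these 8 libraries called 0 genes by limma (0%), with 1350 at an unadjusted p under 0.05.

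Leaving out LPS female replicate 2 left an LPS arm in which all 3 libraries carried cerebellar signal, as did 1 of the 4 PBS libraries and 0 of the 4 LPS+DMA libraries. LPS against PBS then gave 187 genes higher (0.955%) and 485 lower (2.48%), and LPS+DMA against LPS gave 1856 higher (9.48%) and 1609 lower (8.22%). In LPS against PBS 19 of 31 brainstem genes were called higher, and 19 of 23 forebrain synapse genes and 18 of 29 cortical genes lower. In LPS+DMA against LPS 16 of 20 granule cell genes, 12 of 17 Purkinje cell genes and 26 of 31 brainstem genes were called lower. Between LPS+DMA and LPS, treatment and the division by Gabra6 are the same split in this fit and cannot be told apart, so nothing is read from those counts. Between LPS and PBS they overlap except for PBS female replicate 1.

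**Figure D4:**
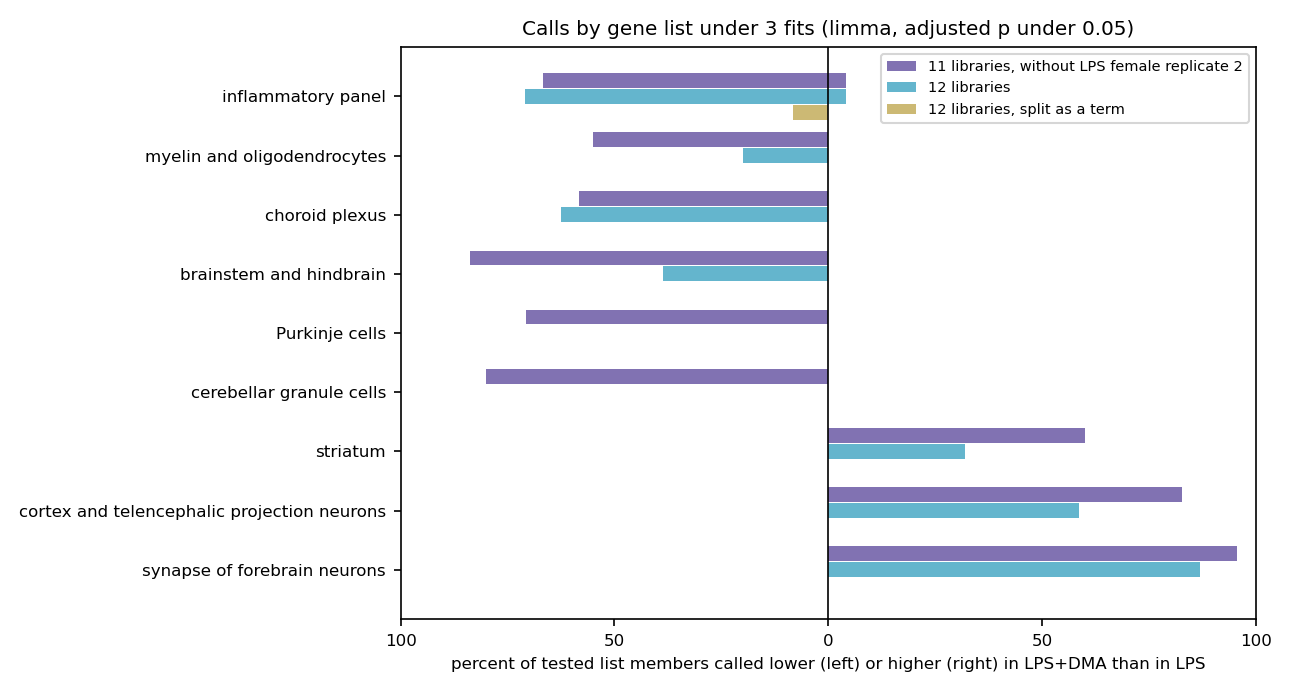
Percent of each list's tested members called lower (left) or higher (right) in LPS+DMA than in LPS by limma at an adjusted p under 0.05, with 1 bar per fit. The fits are without LPS female replicate 2, with all 12 libraries, and with the division by Gabra6 as a term. Without LPS female replicate 2, treatment and the division are the same split, so nothing is read from those bars. With all 12 libraries, part of the members of the forebrain lists are called higher, and part of the brainstem and choroid plexus members lower. With the division as a term, 2 of 24 inflammatory genes are the only members of these lists called.

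Inflammatory genes were compared across the division inside the LPS arm, where 1 library lacked cerebellar signal. Lyz2 was 32.4 FPKM in LPS female replicate 2, and 35.4, 38.9 and 33.3 in LPS female replicate 1, LPS male replicate 1 and LPS male replicate 2. PBS female replicate 1, the PBS library with cerebellar signal, had 6.57 FPKM, and the other PBS libraries 8.01, 9.11 and 10.3. LPS+DMA libraries had 4.56 to 9.29. The LPS libraries were above all others whether or not they carried cerebellar signal, and PBS female replicate 1 was the lowest PBS library. Lyz2 rose by 1.93 in LPS against PBS (SE 0.18, limma adjusted p = 0.00673), and by 2.00 with the division as a term (SE 0.22, adjusted p = 0.0416). It fell by 2.25 in LPS+DMA against LPS (SE 0.18, limma adjusted p = 0.00103), and by 2.36 with the division as a term (SE 0.25, adjusted p = 0.0323). The call in LPS against PBS was lost without PBS female replicate 2 (limma adjusted p = 0.0542, change 1.92), LPS female replicate 1 (0.0575, 1.92) or LPS male replicate 1 (0.0603, 1.88). In the 8 libraries without the signal the changes were 1.65 in LPS against PBS and -2.09 in LPS+DMA against LPS, and neither was called (limma adjusted p = 0.888 and 0.389).

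Tyrobp was 28.5 FPKM in LPS female replicate 2 and 23.3 to 26.3 in the 3 other LPS libraries, against 13.2 in PBS female replicate 1, 14.1 to 17.1 in the other PBS libraries and 7.84 to 12.1 in LPS+DMA. It fell by 1.23 in LPS+DMA against LPS (SE 0.13, limma adjusted p = 0.00436) and by 1.39 with the division as a term (SE 0.16, adjusted p = 0.0334). It was not called with only the 2 arms in the fit, at the same change (limma adjusted p = 0.0521), or in the 8 libraries, at -1.25 (0.444). Of 18 microglial genes 11 fell in LPS+DMA against LPS with all 12 libraries, with a median of -0.74, and 1, Tyrobp, with the division as a term. Saa3, an acute-phase protein, was listed at 0 in all PBS libraries and was 3.17 FPKM in LPS female replicate 2 and 1.61 to 2.42 in the 3 others, so the LPS library without cerebellar signal was the highest. Gfap, the filament of reactive astrocytes, was 79.0 FPKM in LPS female replicate 2 and 93.5 to 97.5 in the 3 others, against 31.4 to 45.3 in PBS and 20.5 to 58.7 in LPS+DMA. It fell by 1.34 in LPS+DMA against LPS (limma adjusted p = 0.0203) and was no longer called with the division as a term, at -1.13 (adjusted p = 0.306), nor without LPS male replicate 1 (0.0824), LPS male replicate 2 (0.0695) or LPS female replicate 1 (0.0784).

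Spp1, osteopontin, was the 1 gene of the 24 in the inflammatory panel counted higher with cerebellar signal. It was 68.6, 104 and 88.6 FPKM in LPS female replicate 1, LPS male replicate 1 and LPS male replicate 2, and 13.3 in LPS female replicate 2. PBS female replicate 1 had 25.8 FPKM, the other PBS libraries 9.42 to 23.6 and LPS+DMA 5.90 to 18.8. The LPS library without cerebellar signal thus lay among the PBS libraries for this gene. Spp1 fell by 2.39 in LPS+DMA against LPS (SE 0.54, limma adjusted p = 0.0255), and the change was -1.14 with the division as a term (adjusted p = 0.385) and -0.66 in the 8 libraries without the signal. The call was also lost without LPS female replicate 1 (limma adjusted p = 0.0895), LPS male replicate 1 (0.0934), LPS male replicate 2 (0.088), LPS+DMA female replicate 1 (0.0525) or LPS+DMA male replicate 1 (0.0535).

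Across the panel, LPS female replicate 2 was above all 4 PBS libraries for 19 of 24 genes, and the 3 other LPS libraries were all above them for 18, with 17 in common. Against the 3 other LPS libraries, LPS female replicate 2 was lower for 9 genes, within their range for 8 and higher for 7. PBS female replicate 1 was higher than the other PBS libraries for 7 genes, lower for 5 and within their range for 12. These counts between single libraries were made for the panel only, so no share of all genes tested can be set beside them. By rank alone, 1 library can lie above or below the others of an arm for part of any gene list. The split of PBS female replicate 1 is therefore not read as a property of the panel. In LPS+DMA against LPS 17 of 24 panel genes fell and 1, Ptgs2, rose with all 12 libraries, and 2 fell with the division as a term, beside a panel median of -1.02 and -0.93. Blood genes, by their sum, separated LPS from PBS, and LPS+DMA overlapped both. The summed level of 14 blood genes was 246 to 998 FPKM in the 4 LPS libraries, 71.96 to 117 in PBS and 42.1 to 308 in LPS+DMA. Their median change in LPS against PBS was 2.08 over the 9 tested, of which 0 were called with all 12 libraries and 6 without LPS female replicate 2. The neutrophil gene S100a9 was 26.9 FPKM in LPS male replicate 1, 7.59 in LPS male replicate 2, 6.72 in LPS female replicate 1 and 2.09 in LPS female replicate 2, against 0.102 to 0.831 in PBS and 2.02 to 7.95 in LPS+DMA. The part of blood, choroid plexus and brain region in the change of each inflammatory gene was not tested.

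**Figure D5:**
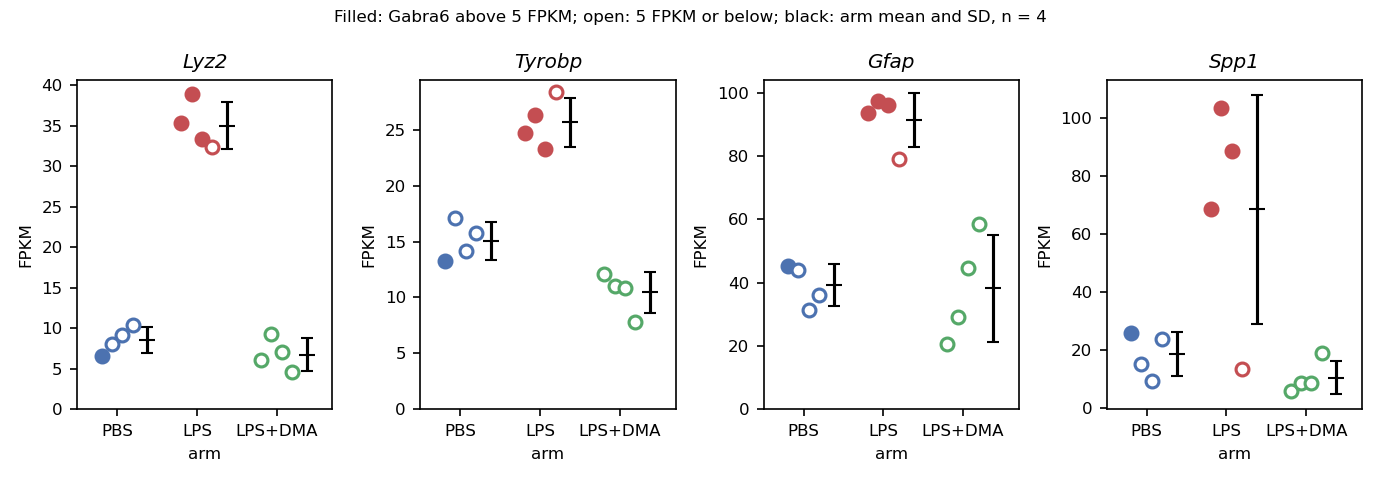
FPKM (vertical axes) of Lyz2, Tyrobp, Gfap and Spp1 in each library by arm, with filled points for Gabra6 above 5 FPKM, open points for the rest, and the arm mean ± SD (n = 4) in black. The open LPS point lies with the filled ones for Lyz2 (32.4 against 33.3 to 38.9) and Tyrobp, and with the PBS libraries for Spp1 (13.3).

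The 12 libraries held 27.5 to 41.4 M reads recovered from the FPKM steps (M, megareads, median 34.4 M), with overlapping depths in the 2 sets. Pearson's correlation between libraries over all tested genes lay between 0.889 and 0.981, so none appeared to be deposited a second time. The labels give each library its own mouse.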

How the data were processed

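The deposited table gives, per the labels, 12 libraries of mouse brain poly(A) RNA, and its values are FPKM that the authors made for 56748 genes on build GRCm39. The submitters' processing notes name the aligners STAR and HISAT2 2.2.1, featureCounts 2.0.6, GATK, edgeR 4.0.16, DESeq2 1.42.0 and fastp, with no roles. The labels' protocols describe both strand-specific and non-strand-specific preparations without saying which was used, so overlapping genes on opposite strands, and near-identical genes such as Hba-a1 and Hba-a2, are uncertain.

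FPKM times gene length fell on whole steps in each library (100% of values up to 1000 reads, within 0.1 reads), which gave 27.5 to 41.4 M reads. Floors are the FPKM of 3 reads and cover counting error only.

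The 19571 genes that reached 0.5 FPKM in 2 or more libraries were taken to the log2(FPKM + 1) scale, on which changes of low genes are understated. Treatment comparisons used limma 3.58.1 in R 4.3.3 with sex and arm as terms, trended and robust variances, and Benjamini-Hochberg adjustment over all genes kept. The other values were computed in Python 3.11.15 with numpy 2.4.6 and pandas 2.3.3, and plotted with matplotlib 3.10.9. The fit was tested on simulated data.

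The libraries, the 33 gene lists (561 genes) and the tests were chosen with earlier results of these data known. Named genes were Gabra6, list members, the 10 coding genes with the highest and lowest correlation with Gabra6 and the 10 with the largest difference in each direction between the sets, and up to 5 genes called per direction and fit. Gm numbers and Rik clones were not named. Alternatives covered the threshold of the division, pseudocount, filter, scaling, variance model, terms, libraries and a block for replicate numbers. Promoter windows and motifs come from RefSeq GRCm38.p6 and were matched by symbol, so their coordinates are not those of the deposited table. Some genes of the lists are not reported here.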

Additional observations from a re-analysis of the deposited data

Results flagged for a closer look

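In arms of 4 libraries, a value was listed when its gap to the nearest other library took more of the arm's range than Dixon's 95% critical value for 4 samples allows. This was met in 16 of 129 groups looked at (43 quantities in 3 arms), where chance gives about 1 in 20. The entries for Gabra6 and the granule cell list restate the gene that divided the libraries, and a single value beside 3 at 0 meets the criterion by construction. These entries are among the 16, and some of the other quantities share genes. The 16 therefore cannot be weighed against that rate.

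In the PBS arm, PBS female replicate 1 stood apart for Gabra6 (74.6 FPKM, the others at 0), Ttr (326.7 FPKM against 0.576 to 5.188) and the list means of log2(FPKM + 1) of granule cells (3.794 against 1.446 to 1.578), choroid plexus (1.831 against 0.9669 to 1.03) and cerebellins with their partners (4.287 against 3.08 to 3.274). These were the cerebellar and choroid plexus quantities of the only PBS library with Gabra6 above 5 FPKM. PBS female replicate 2 stood apart for Ddn (231.1 FPKM against 76.8 to 96.55) and for the list means of cortex (4.159 against 3.432 to 3.515), forebrain synapse (5.782 against 4.982 to 5.1) and, downwards, astrocytes (4.707 against 4.946 to 4.979).

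In the LPS arm, LPS female replicate 2, the only LPS library without cerebellar signal, stood apart for Camk2a (290.9 FPKM against 9.447 to 50.81) and the list means of hypothalamus (2.781 against 1.371 to 1.518) and striatum (3.755 against 1.922 to 2.019). LPS male replicate 1 stood apart for endothelium and pericytes (3.493 against 3.213 to 3.234).

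In the LPS+DMA arm, LPS+DMA male replicate 2 stood apart for Gabra6 (0.1699 FPKM, the others at 0) and for the midbrain list mean (1.973 against 0.6458 to 0.7371), and LPS+DMA female replicate 1 for Ttr (416.5 FPKM against 1.912 to 18.74).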

How the results depend on the processing

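Counts between the sets were 157 higher and 255 lower. With Gabra6 above 20 FPKM, which moves LPS male replicate 1 to the other set, 13 genes were lower. With no minimum fold the counts were 676 and 823, and with a 4-fold minimum 37 and 35. Leaving out 1 library gave 147 to 258 higher and 224 to 562 lower. For LPS against PBS (2 genes called) the count was 1 with a pseudocount of 0.1, with no filter, with the division as a term and with log2 Gabra6 as a covariate. It was 4 with only the 2 arms. For LPS+DMA against LPS (1892) it was 83 with no filter, 2874 with equal total scaling, and 5 with only the 2 arms, with the division as a term and with Gabra6 as a covariate. The 8 libraries hold 1 LPS library, so counts against LPS from that fit are not set beside these. For LPS+DMA against PBS (2) limma called 0 genes with a pseudocount of 5, no filter, no sex term, only the 2 arms or the 8 libraries (2226, 2723, 2101, 1933 and 1350 genes at an unadjusted p under 0.05), and 1 with the division or Gabra6 as a term. Leave-one-out ranges were 0 to 672, 7 to 3465 and 0 to 6 for the 3 comparisons. The cause of these shifts was not tested.

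With the replicate block the counts were 1, 2040 and 1. Same-numbered libraries of different arms correlated above 0.1 in 6 of 12 pairs (-0.0228 to 0.392), and 6 of 12 libraries correlated best with their own number. Whether same-numbered libraries share more than a number was not tested.

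Of 450 single-gene values, 398 kept direction and side of the threshold, 35 lost and 6 gained a call, and 11 reversed, all of genes not called in that comparison. In the 8 libraries, Camk2a was 0.29 in LPS against PBS, Gabra6 was 0.023 in LPS+DMA against LPS and 0.068 in LPS+DMA against PBS, and Gfap was 0.024 in LPS+DMA against PBS. With the division as a term, Gabra6 was -0.22, 0.22 and 0.0018 in the 3 comparisons, and with itself as a covariate 1.1e-07 in LPS+DMA against PBS. These Gabra6 values are held near 0 by the fits themselves and say nothing of stability. Leaving out 1 library gave -2.16 to 0.18 for Gabra6 and -0.34 to 0.11 for Gfap in LPS+DMA against PBS. Of 528 list medians over 33 lists, 507 moved by less than the spread between libraries.

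The division rests on 1 gene and 12 libraries, 1 of them a PBS library with and 1 an LPS library without the signal, so treatment and region are only partly separable. Levels below those of 3 reads cannot be told from 0.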
